A study of Mus musculus with 6 samples.

Results

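Molecular chaperones of the cytosol and mitochondria, the chaperonin CCT and the heat shock factors were followed in αTC1 cells treated with an inhibitor of the splicing factor SMNDC1. The set was written by gene symbol and held 39 protein-coding genes of the 21936 in the deposited gene table, which lists 55487 genes in all. It comprised 8 genes of the Hsp70 and Hsp110 families, 2 Hsp90 genes, 5 Hsp90 co-chaperones, 6 Hsp40 (J protein) genes, the 8 CCT subunit genes, 5 mitochondrial chaperones, 3 small heat shock and Bag3 genes and 2 heat shock factors. The rule takes genes by symbol, with no expression value in it, but the genes were chosen with earlier results of these data known.

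αTC1 (alphaTC1 in the labels) is a mouse glucagonoma line of pancreatic α cells. RNA was sequenced from 3 samples treated with G786-1089, which the submitters describe as the SMNDC1 inhibitor, and 3 samples given its solvent DMSO, all labelled WT in the columns of the deposited tables. The 6 samples share the cell line and the Smart-seq2 protocol, a low-input method that amplifies whole cDNA molecules and keeps no strand, and the labels give no dose, treatment time, passage or batch. They do not say whether the samples of a treatment came from separate cultures, so the p-values measure the spread between these samples, which may be technical. For its cell culture experiments the paper states that each replicate's cells, from a shared batch, were divided among treatments and handled together. The reported fit does not use such pairs.

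Totals ran from 70150880 to 94747943 counts with G786-1089 and from 59070705 to 69480568 with DMSO, so every treated library was deeper. Within a treatment the libraries carry the letters A, B and C, and values per library are given in that order. The α cell markers Gcg, Pcsk2 and Irx2 were detected in every library while Gc had 0 counts in all 6, and the 7 α cell markers summed to 4285 to 4984 CPM (counts divided by the normalised library size) with G786-1089 and 22624 to 25241 CPM with DMSO. Most of this sum was Gcg, with a mean of 3125 CPM with G786-1089 and 21190 CPM with DMSO. Pcsk2 stood at means of 1227 and 2007 CPM, and Slc7a2 went the other way, at 18.5 and 12.5 CPM. Of the marker lists of other cell types, 4 acinar markers summed to 27.3 to 44.4 CPM and 9.01 to 21.5 CPM, with 3 of the 4 at 0, and 5 fibroblast markers to 0 to 0.254 CPM and 1.63 to 4.91 CPM, with 2 of the 5 at 0. The lists of β cells, blood, ducts and endothelium overlapped between the treatments, and the 3 markers of δ and PP cells were at 0. The part of these differences in the values below was not tested. In bulk RNA, fewer cells of a type and less RNA per cell cannot be told apart.

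Chaperones bind unfolded or partly folded proteins. Hsp70 proteins take up nascent and misfolded chains with the help of J proteins, which deliver clients and stimulate ATP hydrolysis, and Hsp110 proteins, which exchange the nucleotide. Hsp90 matures kinases and steroid receptors through a cycle of co-chaperones, CCT is a ring of different subunits that folds actin and tubulin, and Hsp60 with its lid Hsp10 folds proteins imported into mitochondria. Under proteotoxic stress the heat shock factor Hsf1 binds heat shock elements, inverted repeats of the letters GAA, in the promoters of many of these genes.

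Most of the chaperones that changed were lower with G786-1089. Of the 39 genes, 36 had enough counts to be tested, and 22 of them (61.1%) passed an adjusted p of 0.05 by edgeR's quasi-likelihood test, where 14.8% of all 15082 tested genes did. Lower levels were called for 19 genes (52.8%, against 7.8% of all tested genes) and higher levels for 3 (8.33%, against 6.98%). The 19 decreases were modest, from 1.30-fold to 2.46-fold, and 16 of them were less than 2-fold. The study's own filter asks for an adjusted p of at most 0.1 and a log2 fold change of at least 1 in size. The paper used it on DESeq2 results to narrow its splicing events. Applied here to the edgeR fit, it took Dnaja1, Dnajb6 and Hspb8 as lower and Dnajb1 as higher, 4 of 36 genes where 10.4% of all tested genes passed. The CPM of the treatments did not overlap for 25 of the 36 (69.4%), against 36.7% of all tested genes. The median log2 fold change was -0.43 over the 36 chaperones and 0.041 over all tested genes.

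Chaperones are abundant transcripts, and abundance moves with the share of genes called. The median average level was 7.96 on the log2 CPM scale over the 36 genes and 3.20 over all tested genes, and the median standard error (SE) of the log2 fold change was 0.12 and 0.43. Of the 36 genes, 30 lay in the highest expression quartile, in which 36.9% of all tested genes and 21 of these 30 chaperones were called. Transcripts of the 39 genes held 1.81% to 1.83% of all counts in the treated libraries and 2.20% to 2.26% in the DMSO libraries.

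**Figure D1:**
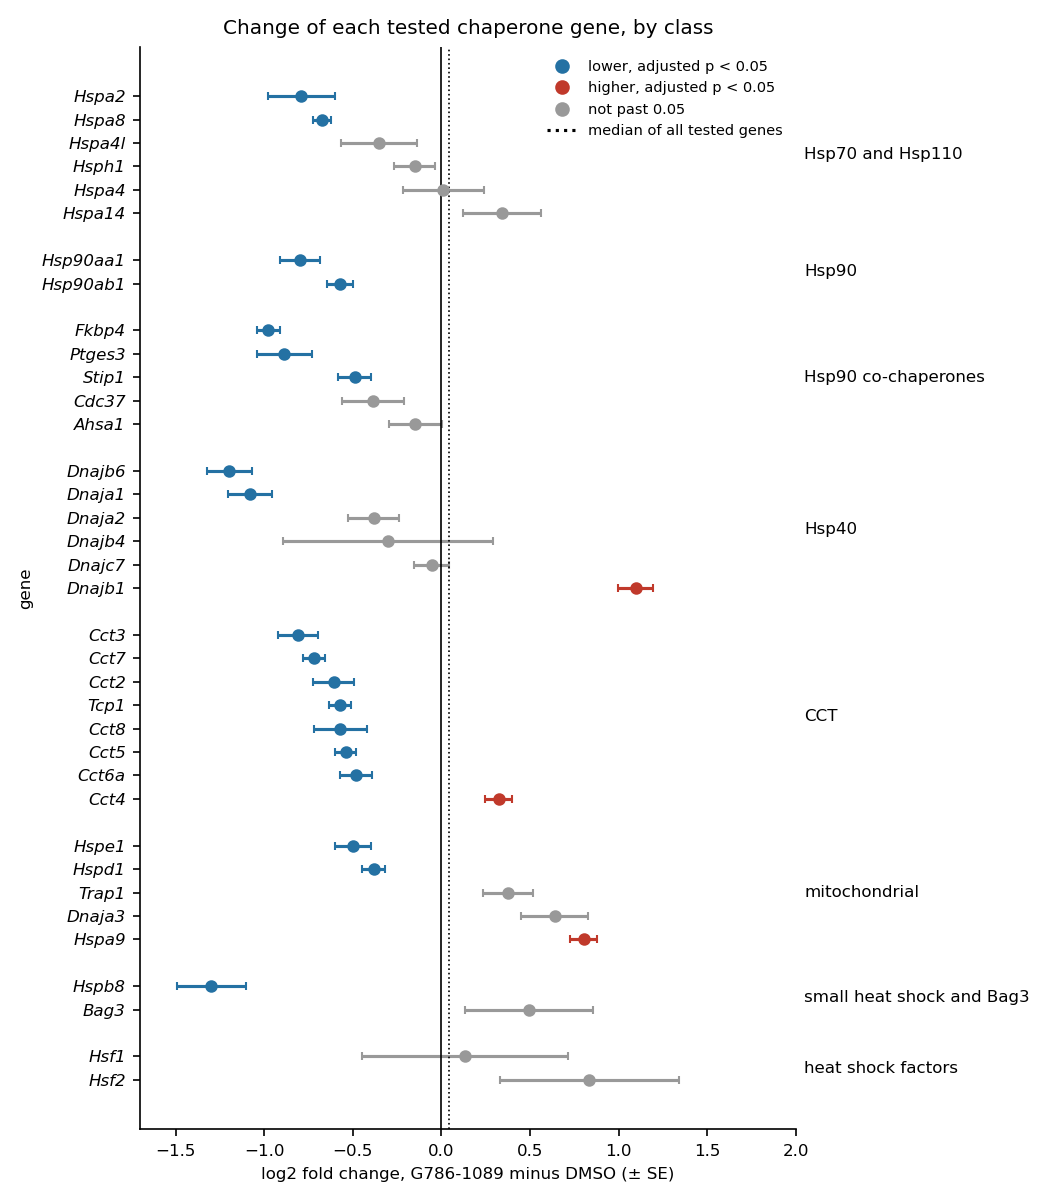
Each point is the log2 fold change (G786-1089 minus DMSO, n = 3 libraries each) of a tested chaperone gene with its SE, ordered by class; blue is lower and red higher at an adjusted p under 0.05, and the dotted line is the median of all tested genes, 0.041. Both Hsp90 genes and 7 of the 8 CCT genes lie left of 0, while Dnajb1, Cct4 and Hspa9 lie to the right.

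To set the letters of the promoters beside these changes, windows from 250 bases before to 50 bases after the RefSeq start (GRCm38.p6) were searched on both strands for the paired unit GAANNTTC, for the opposite order TTCNNGAA, and for either of them with 1 more unit attached. Windows were found for 33 of the 39 genes. The 6 without a window were Hspa8, Hsp90aa1, Hsp90ab1, Cct4, Hspa9 and Hsf1, of which Cct4 and Hspa9 were called higher. GAANNTTC occurred in windows of 12 of these 33 genes and of 9.04% of all 27025 genes with a window. TTCNNGAA occurred in 8 of 33 and in 9.6% of all, and the longer element, which overlaps the shorter ones, in 4 of 33 (Hsph1, Dnajb6, Hspd1 and Hspe1) and in 0.662% of all. Hspd1 and Hspe1 were matched on the same bases, and the upstream bases of Hspa1a and Hspa1b are nearly the same. These counts of genes are therefore not counts of separate elements. The genes with the longer element changed unequally, with log2 fold changes of -0.15 for Hsph1, -1.20 for Dnajb6, -0.38 for Hspd1 and -0.50 for Hspe1. A match of letters is a description and not a measured site.

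The following 4 upstream stretches are shown for genes that went in different directions or share upstream bases, 5′ to 3′ on the strand of the gene named, with matches to either paired unit in capitals and bases inside protein-coding exons left out. The first, chr1:55088025-55088131, lies before the RefSeq start of Hspe1 (plus strand) and before 1 of the 2 RefSeq starts of the divergent gene Hspd1 (minus strand), and it is inside the annotated span of Hspd1, which overlaps that of Hspe1. In it 2 longer elements overlap in 1 run. The second lies before 1 of 3 RefSeq starts of Dnaja1, which was lower (plus strand, chr4:40722218-40722467), inside the annotated span of the gene and partly within an exon of the long non-coding RNA Gm6297, while the windows of the other starts of Dnaja1 hold no match. The third lies before Dnajb1, which was higher and has no match in its windows (plus strand, chr8:83607925-83608174), and the last lies before Hspa1b, which was detected only in treated libraries (minus strand, chr17:34959239-34959488).
Hspe1 and Hspd1: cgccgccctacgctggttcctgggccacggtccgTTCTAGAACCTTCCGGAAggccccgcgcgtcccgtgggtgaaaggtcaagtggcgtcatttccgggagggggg
Dnaja1: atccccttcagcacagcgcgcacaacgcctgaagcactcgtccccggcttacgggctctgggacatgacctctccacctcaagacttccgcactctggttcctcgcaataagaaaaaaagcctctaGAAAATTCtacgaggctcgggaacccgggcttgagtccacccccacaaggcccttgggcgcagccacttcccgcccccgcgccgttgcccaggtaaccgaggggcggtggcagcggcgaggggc
Dnajb1: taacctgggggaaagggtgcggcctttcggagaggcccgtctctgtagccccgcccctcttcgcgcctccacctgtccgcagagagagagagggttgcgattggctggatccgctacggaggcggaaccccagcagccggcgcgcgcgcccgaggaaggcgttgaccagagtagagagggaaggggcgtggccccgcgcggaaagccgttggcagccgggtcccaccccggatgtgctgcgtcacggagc
Hspa1b: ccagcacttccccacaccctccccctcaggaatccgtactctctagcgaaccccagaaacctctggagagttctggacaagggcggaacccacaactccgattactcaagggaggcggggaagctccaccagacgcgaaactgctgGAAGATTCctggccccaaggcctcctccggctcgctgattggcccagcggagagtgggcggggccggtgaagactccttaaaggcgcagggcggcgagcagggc

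Among the Hsp70 genes the constitutive form fell and the stress-inducible forms were barely detected. Hspa8 (chr9:40800984-40810087 in GRCm38), the constitutive cytosolic Hsp70 (Hsc70), was the most abundant chaperone per length in both treatments, at 1817 FPKM ± 58.6 (SD, n = 3, a level scaled by gene length) with G786-1089 and 2906 ± 178 with DMSO. It stood at 4640.1, 4886 and 4715 CPM in the treated libraries and at 7249, 7385 and 8088 CPM in the DMSO libraries. Every treated library was below every DMSO library, and the log2 fold change was -0.67 (SE 0.050, adjusted p = 0.000532). Hspa8 has 5 annotated pseudogenes that match its transcript over at least 100 bases at 95% identity or more, to which the authors' counting assigned reads equal to 83.0% of the Hspa8 counts with G786-1089 and 81.8% with DMSO. Reads of such copies may be split between them, so the level of Hspa8 is uncertain. The copy with most reads, Gm15459, had a log2 fold change of -0.68 (SE 0.052, adjusted p = 0.000603).

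Hspa2, an Hsp70 known from the male germ line, was lower, with 26.2, 20.5 and 20.6 CPM against 34.7, 42.9 and 38.8 CPM and a log2 fold change of -0.79 (SE 0.19, adjusted p = 0.0358). The treatments did not overlap, but of the 6 fits that left out 1 library the call was kept only in that without treated library A. The Hsp110 genes and the ribosome-associated Hspa14 were not called. Hsph1 (Hsp105) stood at 185, 140.3 and 164 CPM and 182, 175 and 185 CPM, overlapping between treatments, with a log2 fold change of -0.15 (SE 0.12, adjusted p = 0.471). Hspa4 and Hspa4l, the other Hsp110 genes, had values of 0.011 (SE 0.23, adjusted p = 0.983) and -0.35 (SE 0.21, adjusted p = 0.344), and Hspa14 of 0.34 (SE 0.22, adjusted p = 0.369).

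The stress-inducible Hsp70 genes Hspa1a and Hspa1b, neighbouring intronless genes on chromosome 17, had too few reads for the test. The alternative fit that kept every gene with at least 1 count in any library did test them and called neither. Hspa1b had 158, 22 and 4 counts in the treated libraries and 0 in each DMSO library. Hspa1a had 13, 12 and 2 counts and 0 in each DMSO library. Both were therefore seen in all treated libraries and in none of the others, and treated library A held most of the Hspa1b reads. Against a floor of 3 counts over the DMSO group, summed Hspa1b was at least 42.2-fold higher, or at least 8.35-fold without that library, and Hspa1a at least 6.20-fold, or 4.50-fold without it. These bounds cover counting error only, and they take each count as a separate fragment. Even numbers made up 78.1% of the counts from 1 to 10, so the bounds may be too high. The highest level, 2.11 CPM of Hspa1b, was small beside that of Hspa8, and since the transcripts of the pair match each other over at least 100 bases at 95% identity or more, their reads may be split between them.

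Both cytosolic Hsp90 genes were lower. Hsp90aa1, the inducible isoform, stood at 328, 277 and 258 CPM in the treated libraries and at 521, 525 and 456 CPM with DMSO. Hsp90ab1, the constitutive isoform, stood at 1309.6, 1421 and 1176 CPM and 1926, 1937 and 1947 CPM. Neither overlapped between the treatments, and the log2 fold changes were -0.80 (SE 0.11, adjusted p = 0.00557) and -0.57 (SE 0.073, adjusted p = 0.00405). Pseudogene copies of Hsp90aa1, 3 in number, held reads equal to 15.1% of its counts with G786-1089 and 14.0% with DMSO. The ratio of Hsp90aa1 to Hsp90ab1 in FPKM was 0.186, 0.145 and 0.164 in the treated libraries and 0.202, 0.202 and 0.174 with DMSO. These ranges overlapped, and the difference of -0.23 in log2 ratio gave p = 0.2 by an exact two-sided permutation test, adjusted p = 0.6 over the 3 ratios compared, where 3 against 3 libraries cannot give less than 0.1.

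Of the 5 Hsp90 co-chaperones, 3 were lower and 2 did not pass the test, and all 5 fold changes were below 0. Fkbp4 (Fkbp52), an immunophilin that serves steroid receptors, fell most of the 5 and had the smallest adjusted p of all 36 chaperones. It stood at 666, 720.3 and 697 CPM with G786-1089 and at 1396, 1283 and 1419 CPM with DMSO, a log2 fold change of -0.98 (SE 0.064, adjusted p = 0.00036). Ptges3, the p23 co-chaperone that stabilises the closed Hsp90 dimer, stood at 258, 178 and 206 CPM and 354, 393 and 441 CPM, a log2 fold change of -0.89 (SE 0.15, adjusted p = 0.0122). Stip1 (Hop), which links Hsp70 to Hsp90, stood at 426, 457 and 378 CPM and 576, 556 and 639 CPM, a log2 fold change of -0.49 (SE 0.095, adjusted p = 0.018). The treatments did not overlap for any of these 3 genes. The kinase adaptor Cdc37 had a log2 fold change of -0.39 (SE 0.17, adjusted p = 0.205) and the ATPase activator Ahsa1 of -0.15 (SE 0.15, adjusted p = 0.594), both with overlapping libraries.

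The J proteins, the Hsp40 partners of Hsp70, went in both directions. Dnajb1 (Hdj1), a partner of Hsp70 in disaggregation, had the largest increase of the 36 tested chaperones, while Dnaja1 and Dnajb6 were lower. Dnajb1 (chr8:83608193-83612653) stood at 462, 524 and 518 CPM with G786-1089 and at 258, 212 and 234 CPM with DMSO. All treated libraries were above all DMSO libraries, a 2.14-fold increase (log2 fold change 1.10, SE 0.10, adjusted p = 0.00114). Dnaja1 (Hdj2), a farnesylated J protein, stood at 171, 159.9 and 151 CPM and 291, 389.9 and 339 CPM. Dnajb6, which suppresses aggregation of polyglutamine proteins, stood at 146, 132 and 172 CPM and 381, 312 and 338 CPM. Neither overlapped, and the decreases were 2.11-fold for Dnaja1 (log2 fold change -1.08, SE 0.12, adjusted p = 0.00265) and 2.29-fold for Dnajb6 (log2 fold change -1.20, SE 0.13, adjusted p = 0.00207). Of the exon bases of Dnaja1, 11.8% overlap Smu1 or Mir207, and of those of Dnajb6 5.7% overlap Gm5129, where reads without strand cannot be told apart. Dnaja1 also has 3 pseudogene copies, with reads equal to 15.6% of its counts with G786-1089 and 13.9% with DMSO. Dnaja2, Dnajb4 and Dnajc7 were not called, with log2 fold changes of -0.38 (SE 0.14), -0.30 (SE 0.59) and -0.055 (SE 0.10) and adjusted p of 0.133, 0.796 and 0.781.

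**Figure D2:**
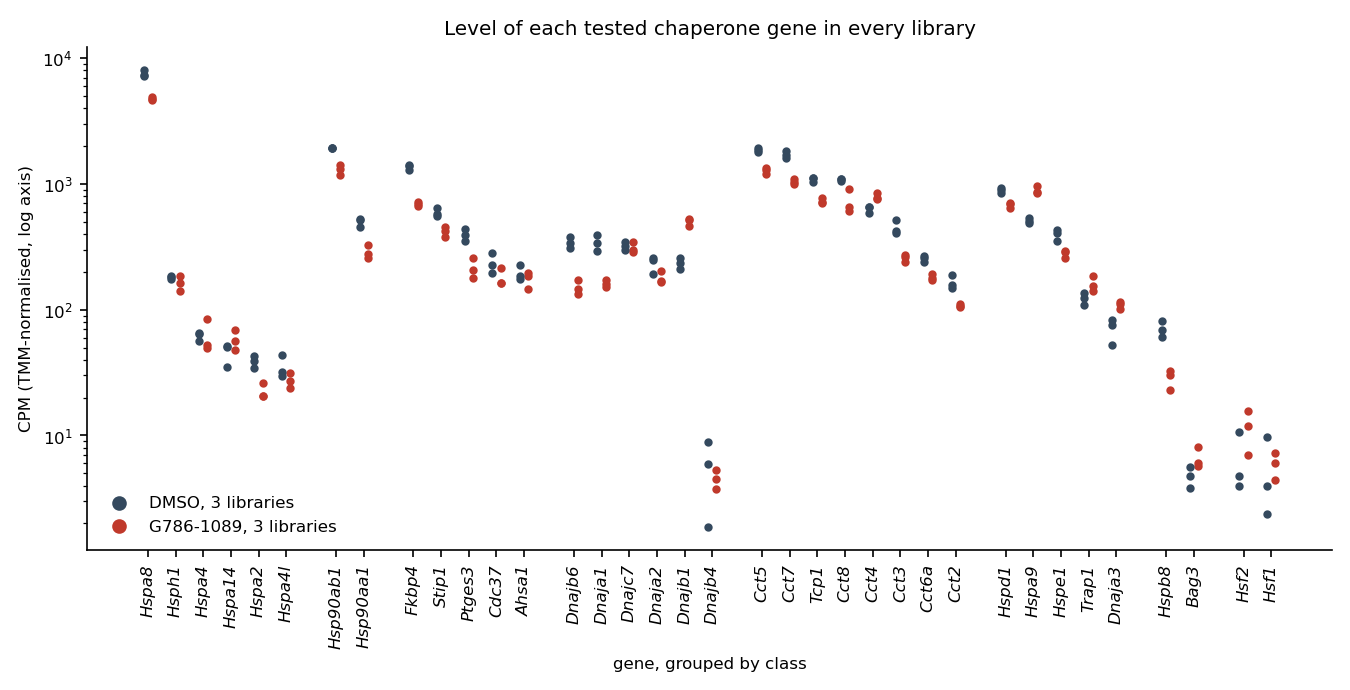
Every library's level in CPM (log axis) is shown for the 36 tested chaperone genes, grouped by class and ordered within a class by the DMSO mean; dark points are the 3 DMSO and red points the 3 G786-1089 libraries. Dnajb1 and Hspa9 sit higher in all treated libraries, and Hspa8 is the most abundant gene in both treatments.

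The chaperonin CCT (TRiC) is built of 8 subunits in each ring, and all 8 genes were called, 7 lower and 1 higher. Tcp1, which encodes the subunit CCT1, stood at 775, 702 and 723 CPM with G786-1089 and 1109, 1122 and 1039 CPM with DMSO (log2 fold change -0.57, SE 0.064, adjusted p = 0.00238). Cct3 stood at 271, 261 and 239 CPM and 408, 422 and 521 CPM, a log2 fold change of -0.81 (SE 0.11, adjusted p = 0.00563). Cct3 had the largest decrease of the 7. Cct2 stood at 106, 110.1 and 107 CPM and 157, 148 and 188 CPM (-0.61, adjusted p = 0.0172). Cct5, the most abundant subunit transcript per length, stood at 1299, 1335 and 1209 CPM and 1947, 1853 and 1790.0 CPM (-0.54, adjusted p = 0.00224). For these 4 genes every treated library was below every DMSO library. Cct6a stood at 173, 194 and 179 CPM and 238, 269 and 256 CPM (-0.48, adjusted p = 0.0156). Cct7 stood at 1036, 1000.3 and 1094 CPM and 1621, 1704 and 1827 CPM (-0.72, adjusted p = 0.00112). Cct8 stood at 915, 652 and 615 CPM and 1088, 1096 and 1056 CPM (-0.57, adjusted p = 0.0479). The libraries of these 3 genes did not overlap either, although 1 treated library of Cct8 (A) was nearest to the DMSO level and the call was kept only in the fit without it. Exons of Tcp1, Cct6a, Cct7 and Cct8 share 20.6%, 18.4%, 8.77% and 8.01% of their bases with a neighbouring gene.

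Cct4 (chr11:22990519-23003780) alone of the 8 was higher, at 852, 777 and 759 CPM with G786-1089 and 659, 659.7 and 591 CPM with DMSO. The libraries did not overlap, and the log2 fold change was 0.32 (SE 0.076, adjusted p = 0.0342). This call was lost in each of the 6 fits that left out 1 library, with an adjusted p of up to 0.0945 and values from 0.27 to 0.36, and with offsets for gene length, at 0.17. As a share of the complex's transcripts, Cct4 made up 14.3%, 13.9% and 14.0% of the summed FPKM of the 8 subunits in the treated libraries and 8.22%, 8.20% and 7.35% with DMSO. The share was 14.1% ± 0.203 (SD, n = 3) against 7.92% ± 0.497, without overlap, and 3 against 3 libraries cannot give an exact p below 0.1. The summed level of the 8 subunits was 2087 FPKM ± 98.8 with G786-1089 and 2970.3 ± 8.78 with DMSO. The FPKM of Cct6a implies a length of 1577 bases where its merged exons hold 2454, so its part of the sum is higher than that length would give. The order of the subunits per length was the same at both ends, with Cct5 at 30.4% ± 1.46 and 31.1% ± 1.38 of the sum and Cct2 at 2.31% ± 0.139 and 2.48% ± 0.314.

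**Figure D3:**
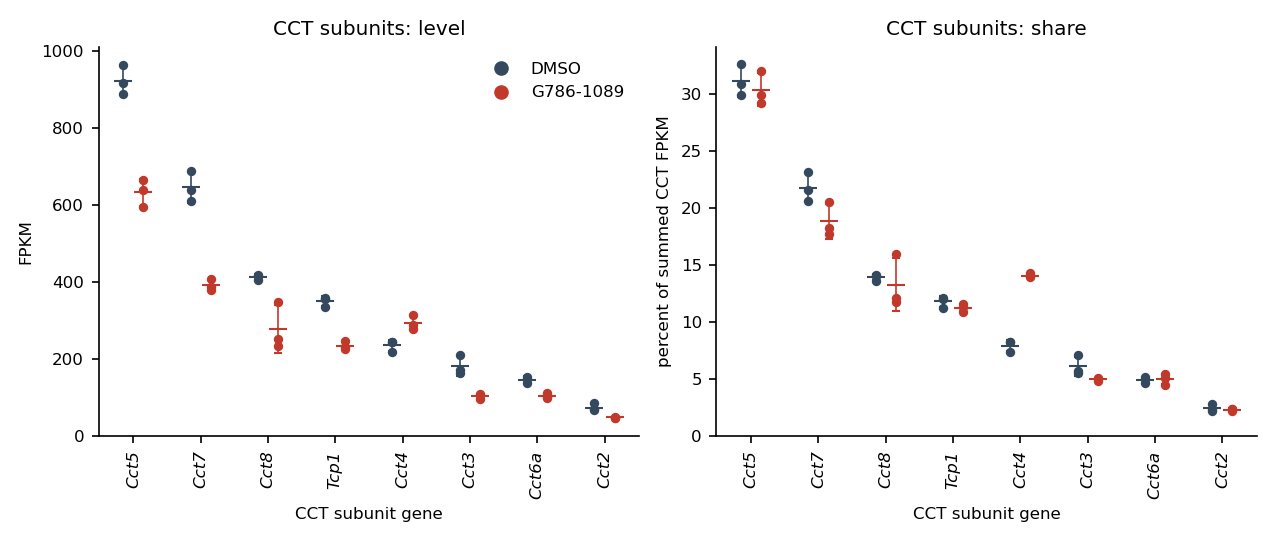
The left panel gives the FPKM of each CCT subunit gene and the right panel its percent of the summed FPKM of the 8, with points for the 3 libraries of each treatment and a line with bars for the mean ± SD. Cct4 makes up 7.92% of the sum with DMSO and 14.1% with G786-1089, and the shares of the other 7 subunits change less.

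The mitochondrial chaperones were divided, with the matrix Hsp70 higher and the Hsp60 and Hsp10 pair lower. Hspa9 (mortalin), the motor of mitochondrial protein import, stood at 862, 965 and 846 CPM with G786-1089 and 489.5, 535 and 508 CPM with DMSO. All treated libraries were higher, with a log2 fold change of 0.80 (SE 0.075, adjusted p = 0.0012). Hspd1 (Hsp60) stood at 698, 645 and 705 CPM and 889.5, 926 and 854 CPM, and Hspe1 (Hsp10) at 291, 257 and 288 CPM and 350.4, 429 and 404 CPM. Both were lower without overlap, with log2 fold changes of -0.38 (SE 0.064, adjusted p = 0.0105) and -0.50 (SE 0.10, adjusted p = 0.0208). The call of Hspd1 was kept in all 6 fits that left out 1 library, and that of Hspe1 in 2, those without treated library A or DMSO library A. Without TMM factors, by library size alone, both calls were lost, Hspd1 at -0.18 (adjusted p = 0.153) and Hspe1 at -0.29 (adjusted p = 0.108). The stretch printed above lies before starts of both genes. The ratio of Hspd1 to Hspe1 in FPKM was 0.766, 0.802 and 0.781 in the treated libraries and 0.811, 0.69 and 0.674 with DMSO, a difference of 0.12 in log2 ratio (p = 0.4 by the exact two-sided permutation test, adjusted p = 0.6). Dnaja3 (Tid1), the J protein of Hspa9, had a log2 fold change of 0.64 (SE 0.19, adjusted p = 0.0692) and Trap1, the mitochondrial Hsp90, of 0.38 (SE 0.14, adjusted p = 0.136). Neither passed the test, although the treated libraries of both lay above the DMSO libraries. Dnaja3 passed in 5 of the 10 other settings, among them DESeq2 (adjusted p = 0.00767), and Trap1 in 1, library size only (adjusted p = 0.0286).

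Of the small heat shock genes and Bag3, 1 was lower, 1 did not pass the test and 1 had no reads. Hspb8, which works with Bag3 in the disposal of aggregates, had the largest decrease of the 36 genes. It stood at 32.5, 23.1 and 30.3 CPM with G786-1089 and 60.7, 68.9 and 81.8 CPM with DMSO, a 2.46-fold decrease without overlap (log2 fold change -1.30, SE 0.20, adjusted p = 0.00738). Bag3 stood at 8.13, 6.08 and 5.74 CPM and 5.59, 3.82 and 4.75 CPM. Its libraries did not overlap, but the difference did not pass the test (log2 fold change 0.50, SE 0.36, adjusted p = 0.438). Hspb1 (Hsp25) had 0 counts in all 6 libraries. At 3 counts over a group, with each count taken as a separate fragment, this allows up to 0.0115 CPM with G786-1089 and 0.0167 CPM with DMSO. The true limit may be higher.

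The heat shock factors were not called. Hsf1 stood at 7.19, 6.06 and 4.43 CPM in the treated libraries and 2.38, 9.74 and 3.99 CPM with DMSO, and Hsf2 at 7.03, 15.8 and 11.9 CPM and 4.73, 3.96 and 10.7 CPM. The treatments overlapped for both, and the log2 fold changes were 0.13 (SE 0.58, adjusted p = 0.913) and 0.84 (SE 0.51, adjusted p = 0.343). The ratio of Hsf2 to Hsf1 in FPKM ran from 0.809 to 2.22 with G786-1089 and from 0.336 to 2.23 with DMSO (p = 0.7 by the exact two-sided permutation test, adjusted p = 0.7). The libraries of a treatment differed widely for these genes, with an SE of 0.58 for Hsf1 and 0.51 for Hsf2 on the log2 scale.

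By class, the median log2 fold change was -0.69 for the 2 Hsp90 genes, -0.57 for CCT, -0.49 for the Hsp90 co-chaperones, -0.34 for the J proteins, -0.25 for Hsp70 and Hsp110, and 0.38 for the mitochondrial chaperones. Only the mitochondrial class and the uncalled heat shock factors had a median above that of all tested genes. No test between classes was made. The 14 genes that did not pass the test ran from -0.39 to 0.84, with 7 below and 7 above 0.

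The wider chaperone network was listed by role and comprised 80 further genes. Of these, 76 were tested and 17 were called (22.4%, against 14.8% of all tested genes), 11 lower and 6 higher, with a median log2 fold change of -0.09. The share called among all tested genes ran from 3.61% in the lowest to 36.9% in the highest expression quartile. The network was not compared with genes of like level. The network count was 28 with DESeq2, which called 25.5% of all genes given an adjusted p. It was 9 to 14 with a library left out, where 9.13% to 11% of all tested genes were called. The count was 9 without DMSO library C and 10 without DMSO library A or B or treated library C. Of 15 tested genes of prefoldin and tubulin folding, which hand over and assemble the clients of CCT, 4 were called (26.7%), all lower. The 4 included the tubulin cofactor Tbcc, at 57, 80.8 and 88 CPM with G786-1089 and 133, 152 and 155 CPM with DMSO (log2 fold change -0.96, SE 0.18, adjusted p = 0.0156). Among 9 tested other Hsp70 partners (33.3% called), 2 were lower and 1 was higher, Bag5 (log2 fold change 0.74, SE 0.15, adjusted p = 0.0215). The exchange factor Bag1 stood at 471, 575 and 533 CPM and 1053, 1008 and 1042 CPM (log2 fold change -0.98, SE 0.083, adjusted p = 0.000922). Hsbp1, which binds the trimerisation domain of Hsf1, stood at 292, 272 and 245 CPM and 498, 519.9 and 488 CPM (log2 fold change -0.90, SE 0.086, adjusted p = 0.00136). Bag1 and Hsbp1 were lower in every treated library.

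In mitochondria, 2 of 10 further folding and proteolysis genes were called (20%, against 14.8% of all tested genes) and both were higher. The median log2 fold change of the 10 was -0.062. Lonp1, the matrix protease, stood at 193, 198 and 193 CPM with G786-1089 and 73.3, 77.4 and 79.5 CPM with DMSO (log2 fold change 1.34, SE 0.089, adjusted p = 0.000367). Grpel2, a nucleotide exchange factor of Hspa9, stood at 43.1, 63.1 and 60.5 CPM and 22.2, 12.6 and 17.7 CPM (log2 fold change 1.67, SE 0.27, adjusted p = 0.00917). Every treated library of these 2 genes was above every DMSO library. Of 23 other J proteins, 2 were lower and 2 higher, so that 17.4% were called, near the 14.8% of all tested genes. Dnajc19, of the mitochondrial import motor, stood at 143, 143 and 146 CPM and 249, 243 and 276 CPM (log2 fold change -0.83, SE 0.086, adjusted p = 0.0018). Dnajc21, of ribosome assembly, stood at 56.9, 49 and 60.6 CPM and 123, 139 and 161 CPM (log2 fold change -1.35, SE 0.15, adjusted p = 0.00224). Dnajc5, the cysteine string protein of secretory vesicles, stood at 139.6, 142 and 129 CPM and 66.6, 66.4 and 90.7 CPM (log2 fold change 0.88, SE 0.15, adjusted p = 0.0119). The treatments did not overlap for these 3 genes, of which Dnajc5 was higher and the others lower.

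Of the 22 calls among the 39 chaperones, 15 were kept in all 6 fits that left out 1 library and 14 in all 10 fits with other settings. With the column letters as a replicate block, 15 chaperones and 8.17% of all tested genes were called. None of the 36 fold changes reversed a called direction. Library size only in place of TMM factors moved the median of all tested genes to 0.25, and the chaperones called to 12 lower and 5 higher. The number of chaperones below that median was 27 of 36, as in the fit reported here. A change of library scaling shifts all genes by nearly the same amount, so this number could hardly move and is no test of stability.

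**Figure D4:**
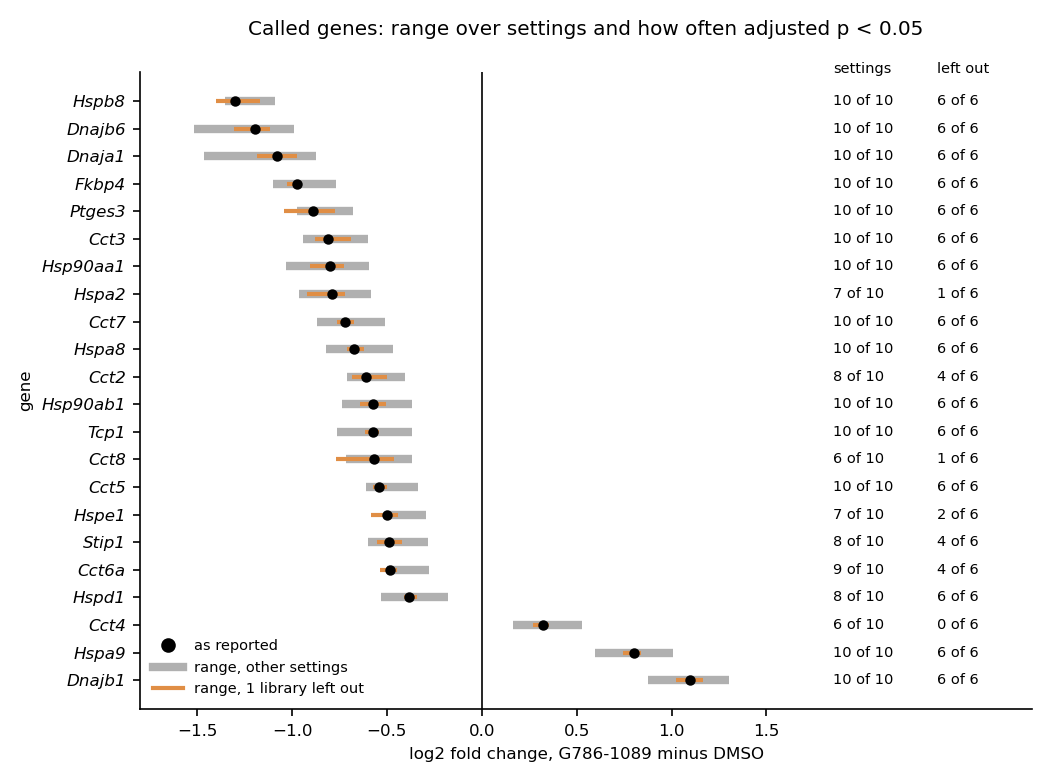
For the 22 called genes, the black point is the reported log2 fold change, the grey bar its range over 10 other settings and the orange bar its range over the 6 fits that left out 1 library; the columns at the right count the fits with an adjusted p under 0.05. No bar crosses 0, and Cct4 passed in 6 of 10 settings and in 0 of 6 fits with a library left out.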

How the data were processed

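The deposited counts are whole numbers of reads per gene in 6 libraries, made by the authors with STAR 2.7.9a on GRCm38 and counting on Ensembl transcripts irrespective of strand, summed per gene (version per the labels' processing notes). The authors also deposited FPKM values of the same genes. How these were made is not given in the sources used here, but the lengths they imply were within 10% of the merged exon length in 99.3% of the genes compared. Cct6a and Dnajc7 were exceptions. Even numbers made up 78.1% of the counts from 1 to 10, so that some counts are not single fragments.

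Genes were matched by symbol and protein-coding type. The members and the lists of further chaperones and of cell markers were chosen with earlier results of these data known, and 1 listed marker is not reported here. Genes described with values in every library were the best known members of each class and every called member, and of the wider network the 8 called genes with the smallest p-values.

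Counts were filtered with filterByExpr (minimum count 10, minimum total 15), normalised by TMM and compared with the quasi-likelihood test of edgeR 4.0.16 in R 4.3.3, with Benjamini-Hochberg adjustment over 15082 genes. A call is an adjusted p-value under 0.05, CPM values use the TMM-scaled library size, and each SE was obtained from the fold change and the F statistic of its gene. The 3 ratios of FPKM were compared by exact permutation. Alternatives were DESeq2 1.42.0, RLE factors, library size only, other filters, gene length offsets, limma 3.58.1 on log2 FPKM (pseudocounts 1 and 0.1), a replicate block, and each library left out. Scripts were tested on simulated data. Exons and overlaps came from GENCODE vM21 and copies from blastn 2.17.0. No pair of replicates agreed within sampling noise (chi-square per degree of freedom at least 78.0). At 59070705 counts or more per library, counting error is small except for genes near 0.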

Additional observations from a re-analysis of the deposited data

How the results depend on the processing

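The number of chaperones called stayed between 15 and 24 under the alternatives, and none of 576 fold changes by gene and alternative reversed a called direction. Of these values 519 kept their side of the threshold, 47 lost the call and 10 gained one. Of all tested genes 2230 were called, 1053 of them higher, against 3667 with DESeq2, 1377 to 1659 with a library left out, and with library size only 1630 higher and 796 lower, with gene length offsets 671 higher and 1481 lower. The cause of the changes below was not tested.

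Library size only gave 12 chaperones lower and 5 higher and medians of -0.23 over all members, -0.046 for Hsp70 and Hsp110, -0.48 for Hsp90, -0.29 for its co-chaperones, -0.14 for Hsp40, -0.37 for CCT, 0.58 for the mitochondrial class and -0.20 for small heat shock genes and Bag3, where the median of all tested genes moved from 0.041 to 0.25. It lost the calls of Hspa2, Stip1, Cct2, Cct6a, Cct8, Hspd1 and Hspe1. Gene length offsets moved it to -0.11 and gave -0.59 over all members, -0.61, -0.89, -0.79, -0.54, -0.71 and 0.23 for the first 6 of these classes. With at least 1 count in any library, which adds Hspa1a and Hspa1b to the tested genes, the medians were -0.37 over all members and -0.057 for Hsp70 and Hsp110. Limma-trend on log2 FPKM gave -0.21 for Hsp70 and Hsp110 and -0.24 for Hsp40 with a pseudocount of 1, -0.22 for Hsp40 with 0.1, and without a minimum -0.38 over all members, -0.093 for Hsp70 and Hsp110 and -0.24 for Hsp40. DESeq2 called 28 of the wider network and 25.5% of all genes given an adjusted p.

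Leaving out 1 library gave 16 to 20 chaperones called, 14 to 18 lower and 2 higher, where 9.13% to 11% of all tested genes were called. Of the wider network 9 to 14 were called, with 9 or 10 without treated library C or any 1 of the DMSO libraries. The medians ran from -0.51 to -0.43 over all members, from -0.31 to -0.15 for Hsp70 and Hsp110, from -0.74 to -0.62 for Hsp90, from -0.55 to -0.43 for its co-chaperones, from -0.61 to -0.20 for Hsp40, from -0.60 to -0.53 for CCT, from 0.26 to 0.46 for the mitochondrial class, from -0.54 to -0.31 for small heat shock genes and Bag3 and from 0.21 to 0.73 for the heat shock factors. Beside Cct4, Hspa2, Cct8 and Hspe1, calls were lost for Cct2 without treated library A or C, for Stip1 without DMSO library A or C and for Cct6a without DMSO library B or C. The log2 ratio of Hsf2 to Hsf1 ran from -0.29 to 1.08.

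With the column letters as a replicate block, 15 chaperones and 1232 of all genes were called, and the Hsp40 median was -0.22. The calls of Hspa2, Stip1, Cct2, Cct4, Cct8, Hspd1 (adjusted p = 0.0564) and Hspe1 were lost. Deviations of same-letter libraries correlated by only 0.0023 to 0.018, so the letters were not taken as pairs. Depth limits Hspa1a, Hspa1b and Hspb1, which had few or no reads, and the spread between libraries limits Hsf1 and Hsf2. The planned ratio of the Hspa1 pair to Hspa8 could not be computed, as both genes had 0 counts with DMSO.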
